A study of Homo sapiens with 2 samples.

Results

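The deposited list of LSD1 binding peaks in a prostate cancer cell line was read at 8 genes that are textbook targets of the androgen receptor in the prostate: KLK3, KLK2, TMPRSS2, FKBP5, SLC45A3, FOLH1, PMEPA1 and ABCC4. They are 8 of the 20163 protein-coding genes of the annotation. For each gene, every peak that shares at least 1 base with the gene was taken, and the nearest peak on each side up to 100 kb away. This gave 12 of the 20110 peaks of the list, 7 inside genes and 5 beside them. The gene of the receptor itself is not among the 8 genes.

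The study comprised 2 libraries from PC-3M-luc cells, 1 of chromatin immunoprecipitated with an antibody to LSD1 and 1 of input DNA, which carries no enrichment and serves as background. PC-3M-luc is a luciferase-marked metastatic derivative of PC-3, a human prostate carcinoma line that grows without androgen. Both libraries are labelled as biological replicate 1 with the genotype Control, from cells at passages 17 to 20 kept in EMEM with 10% fetal bovine serum and glutamine, and no drug or hormone treatment is named. The line is a single model, and its expression of the receptor or of the 8 genes was not measured in these files. Read depth is unknown and there is 1 library per arm, so no value has a replicate check, no test across genes was made, and an absent peak means only that none passed the authors' threshold.

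The androgen receptor is a hormone-activated transcription factor. On binding androgen it enters the nucleus and binds response elements, mostly in distal enhancers of luminal prostate genes, together with pioneer factors such as FOXA1. LSD1 (KDM1A) demethylates histone H3 lysine 4 within corepressor complexes, and it has also been described as a partner of the receptor that can raise or lower its target genes. PC-3 cells are known for very low receptor levels and for little expression of the secreted luminal products.

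The promoters are shown first because 4 of the 7 peaks called inside these genes cover an annotated start site. The sequences are the 250 bases before an annotated start, taken from RefSeq (build GRCh38.p14) and placed on hg19 by an exact match. The RefSeq promoter table used here gave entries for 6 of the 8 genes, all but TMPRSS2 and FOLH1. They are written 5′ to 3′ on the strand of the gene, with CpG dinucleotides in capitals. The first 4 lie wholly or partly under LSD1 peaks, at ABCC4 (chr13:95953706-95953955, minus strand), at the downstream and upstream starts of FKBP5 (chr6:35656693-35656942 and chr6:35696361-35696610, minus strand) and at SLC45A3 (chr1:205649638-205649887, minus strand).
ABCC4: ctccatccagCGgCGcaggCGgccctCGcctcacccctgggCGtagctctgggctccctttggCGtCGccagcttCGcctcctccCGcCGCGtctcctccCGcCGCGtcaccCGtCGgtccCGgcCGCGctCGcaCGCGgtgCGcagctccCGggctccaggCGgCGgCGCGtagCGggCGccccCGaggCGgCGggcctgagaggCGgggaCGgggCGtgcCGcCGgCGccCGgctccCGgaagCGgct
FKBP5, downstream start: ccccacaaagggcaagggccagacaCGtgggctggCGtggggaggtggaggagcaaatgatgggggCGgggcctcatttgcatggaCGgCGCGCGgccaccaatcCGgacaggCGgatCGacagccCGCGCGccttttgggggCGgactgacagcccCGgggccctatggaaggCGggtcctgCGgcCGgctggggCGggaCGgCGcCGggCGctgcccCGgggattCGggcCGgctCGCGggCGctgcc
FKBP5, upstream start: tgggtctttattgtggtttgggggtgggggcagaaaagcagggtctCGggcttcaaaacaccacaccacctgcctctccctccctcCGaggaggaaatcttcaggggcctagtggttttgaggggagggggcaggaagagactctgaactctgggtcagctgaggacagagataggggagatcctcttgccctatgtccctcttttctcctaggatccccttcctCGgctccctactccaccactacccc
SLC45A3: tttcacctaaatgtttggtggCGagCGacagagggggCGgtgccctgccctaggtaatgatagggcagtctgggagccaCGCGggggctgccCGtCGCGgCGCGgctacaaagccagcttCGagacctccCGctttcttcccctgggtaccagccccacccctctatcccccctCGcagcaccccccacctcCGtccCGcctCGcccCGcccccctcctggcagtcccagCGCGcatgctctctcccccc
The next 3 had no peak, at KLK3 (chr19:51357921-51358170, plus strand), KLK2 (chr19:51376445-51376694, plus strand) and the canonical start of PMEPA1 (chr20:56285072-56285321, minus strand).
KLK3: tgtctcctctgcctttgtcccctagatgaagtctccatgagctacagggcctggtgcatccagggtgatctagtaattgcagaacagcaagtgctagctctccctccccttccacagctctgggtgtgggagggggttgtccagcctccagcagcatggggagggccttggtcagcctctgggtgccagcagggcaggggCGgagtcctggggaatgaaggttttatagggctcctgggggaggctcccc
KLK2: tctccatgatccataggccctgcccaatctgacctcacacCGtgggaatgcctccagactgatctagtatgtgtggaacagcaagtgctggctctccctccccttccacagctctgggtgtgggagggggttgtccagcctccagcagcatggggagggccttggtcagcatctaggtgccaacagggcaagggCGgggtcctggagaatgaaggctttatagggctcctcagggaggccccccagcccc
PMEPA1: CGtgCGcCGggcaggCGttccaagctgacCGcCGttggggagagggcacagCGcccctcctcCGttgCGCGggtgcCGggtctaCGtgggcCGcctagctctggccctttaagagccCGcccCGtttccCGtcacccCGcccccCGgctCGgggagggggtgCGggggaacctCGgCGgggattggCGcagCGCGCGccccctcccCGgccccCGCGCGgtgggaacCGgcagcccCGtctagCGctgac
The ABCC4 promoter held 42 CpG in its 250 bases, the downstream FKBP5 promoter 29 and the SLC45A3 promoter 19. The upstream FKBP5 promoter held 3, and only the 142 bases next to its start lay under the peak. KLK3 held 1 and KLK2 held 2, whereas PMEPA1 held 33 without a peak. The median over the 35116 promoters of the RefSeq table was 11, with the middle 50% from 3 to 23.

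LSD1 peaks lay inside 3 of the 8 genes, FKBP5, SLC45A3 and ABCC4, and in each of these a peak covered the canonical start site. KLK3, KLK2, TMPRSS2, FOLH1 and PMEPA1 had no peak in the gene. Counting the 100 kb on each side as well, 5 of the 8 genes had a peak, against 83.9% of all protein-coding genes. The 3 of 8 with a peak in the gene, a share of 37.5% (exact 95% binomial interval 8.52 to 75.5, counting error only), stand beside 61.2% of all protein-coding genes overlapped by a peak, so with 8 genes the counting interval covers the share of all genes. The interval treats the genes as separate random draws, although they were chosen and KLK3 and KLK2 share 1 peak-free stretch. A promoter peak, with its midpoint at most 1 kb from a transcription start site (TSS) of the gene, was present at the same 3 genes, against 54.6% of all genes. Since genes under 10 kb were overlapped less often than longer ones, the genes were also set beside their length class. KLK3, at 5.85 kb, is in the class under 10 kb, of which 44.4% were overlapped. SLC45A3 (22.7 kb, with peaks) and KLK2 (19 kb, without) are in the class of 10 to 30 kb, where 63.3% were overlapped. The 3 genes of 30 to 100 kb, TMPRSS2, FOLH1 and PMEPA1, all lacked a peak, in a class in which 70.2% had one. Both genes of 100 kb or more, FKBP5 and ABCC4, had peaks, as did 68% of that class.

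**Figure D1:**
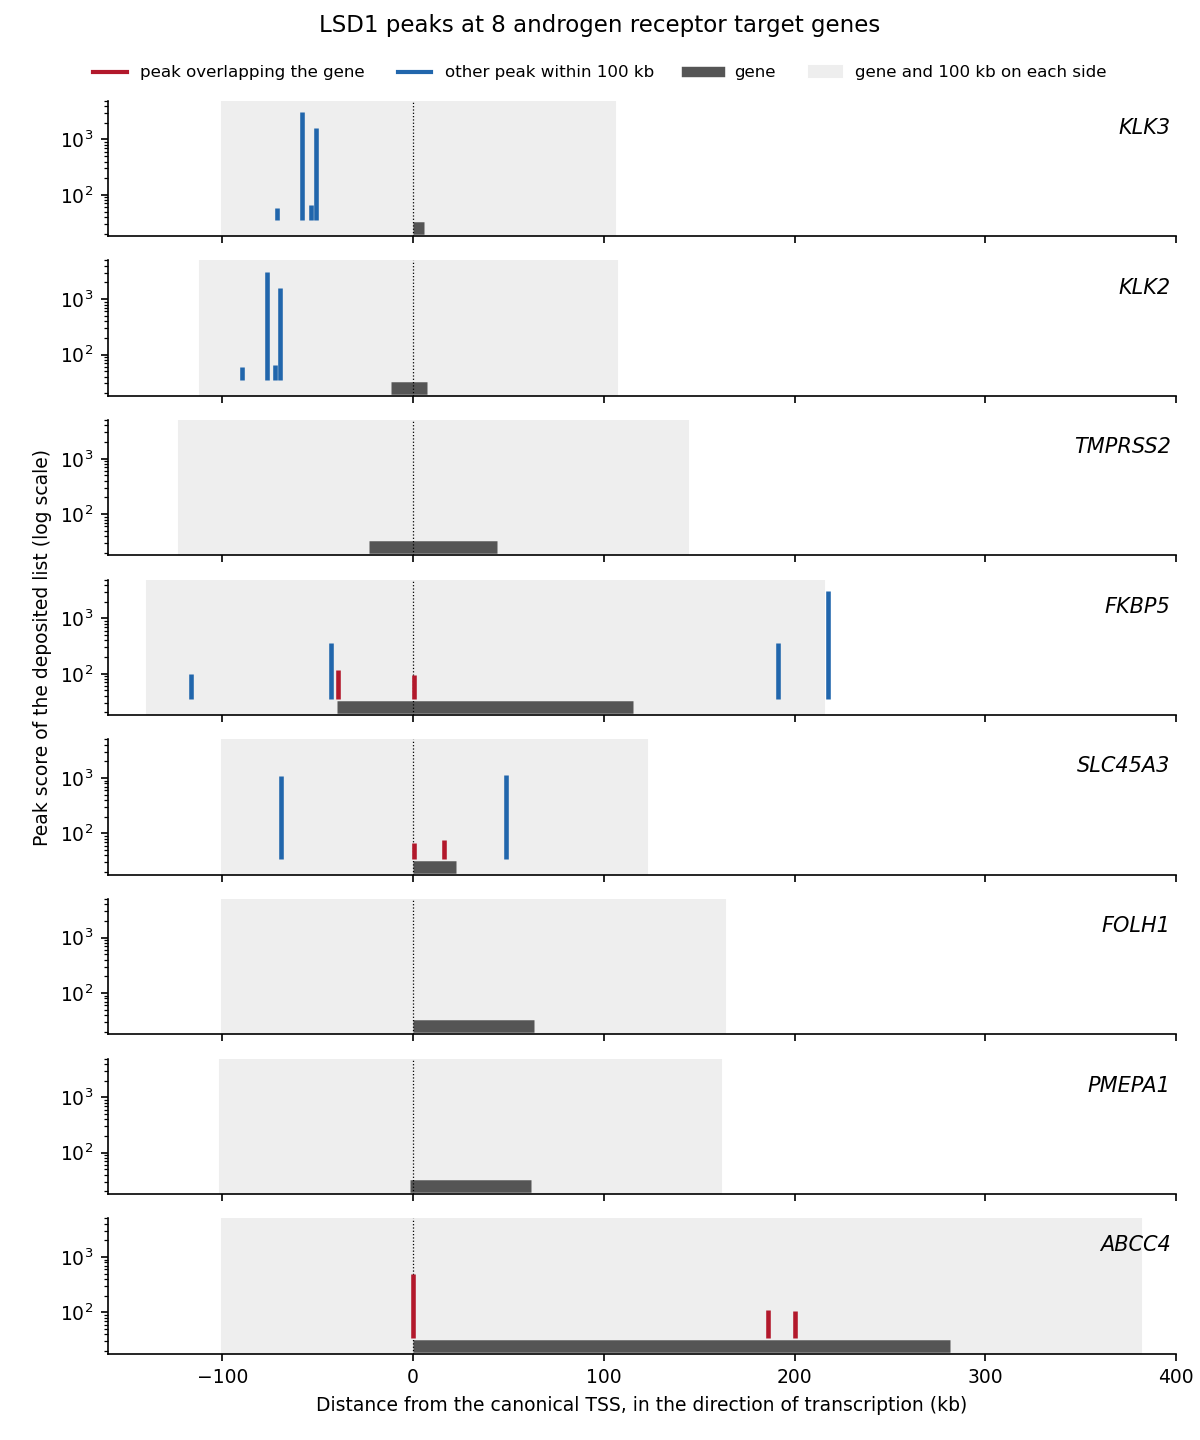
Peaks at the 8 genes, each panel showing 1 gene (dark bar) with 100 kb on each side (grey), plotted by distance from its canonical TSS in kb in the direction of transcription; the height of each line is the peak's score on a log scale. Red lines, the peaks inside genes, occur in FKBP5, SLC45A3 and ABCC4, and the panels of TMPRSS2, FOLH1 and PMEPA1 hold no peak.

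The 7 peaks inside these genes were mostly low in score. Each score is the authors' own value for the peak, taken here as the peak caller's from the list's format, and served only to rank peaks within this list. Its median over all peaks was 205.87, and 6 of the 7 peaks lay below that. Their scores ran from 66.51 to 484.73 with a median of 105.24. Their widths ran from 951 to 1970 bp with a median of 1312 bp, against 1649 bp over the list. The 5 flanking peaks ran from 354.25 to 1608.71, all above the list median. The highest score inside a gene, 484.73, exceeded those of the flanking peaks of FKBP5 (354.25 and 356.58). Per gene, the highest score had a median of 116 over the 3 genes with a peak and of 493 over the 12346 protein-coding genes with one.

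**Figure D2:**
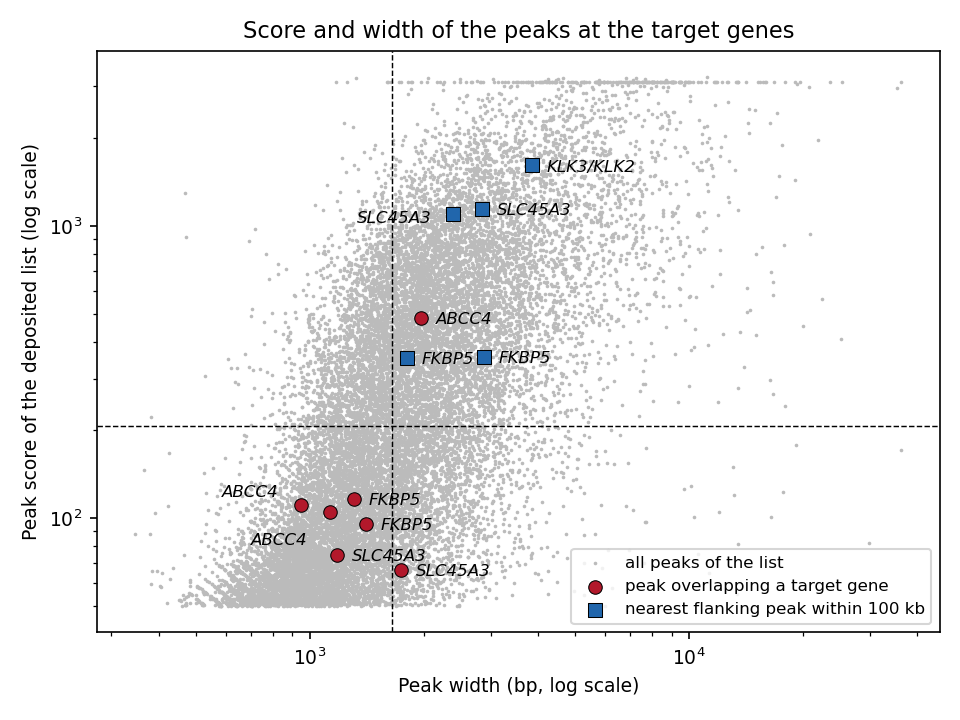
Score against width of all 20110 peaks (grey), of the 7 peaks inside the target genes (red circles) and of the 5 nearest flanking peaks within 100 kb (blue squares), both axes on log scales; dashed lines are the medians of the list. Only the ABCC4 promoter peak, at 484.73, lies above the median score among the red circles, and all 5 blue squares lie above it.

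ABCC4, which encodes an efflux pump for cyclic nucleotides, prostaglandins and drugs (MRP4), carried the highest-scoring of these peaks. The gene lies at chr13:95672089-95953729 on the minus strand and is the longest of the set at 282 kb. Its promoter peak (chr13:95952745-95954714, 1970 bp, score 484.73) exceeded 72.1% of all peaks in score. The midpoint lay 24 bp upstream of the canonical TSS, and 9 of the 14 annotated start sites fell under the peak. A further pair of peaks lay in intron 20 of 30, at chr13:95767330-95768280 (951 bp, score 110.69) and chr13:95752683-95753815 (1133 bp, score 105.24). Their midpoints were 185900 and 200456 bp downstream of the canonical TSS and covered no start site. Only 9.71% of all protein-coding genes had 3 or more peaks, and ABCC4 is also among the longest. No flanking peak lay within 100 kb of it, the nearest being at the DNAJC3 promoter 375 kb upstream and at SOX21 306 kb downstream.

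The intronic ABCC4 peaks differed in base content from the promoter peak, which is why the 200 bases at their midpoints are shown (hg19, gene strand, CpG in capitals), at chr13:95767706-95767905 and chr13:95753150-95753349.
ABCC4 intron, score 110.69: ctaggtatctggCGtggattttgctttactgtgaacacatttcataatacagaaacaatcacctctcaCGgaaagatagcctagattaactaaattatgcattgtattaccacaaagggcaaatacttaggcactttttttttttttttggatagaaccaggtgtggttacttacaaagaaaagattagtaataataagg
ABCC4 intron, score 105.24: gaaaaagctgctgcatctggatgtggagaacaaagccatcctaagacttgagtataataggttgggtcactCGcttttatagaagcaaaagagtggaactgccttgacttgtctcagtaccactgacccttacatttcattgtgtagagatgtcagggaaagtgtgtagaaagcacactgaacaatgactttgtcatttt
These windows held 2 and 1 CpG and 33.5% and 41.5% GC, against 30 CpG and 79.5% GC at the midpoint of the promoter peak. The median over all peaks was 8 CpG and 60% GC.

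FKBP5, a co-chaperone of HSP90 in steroid receptor complexes and a target of both the androgen and the glucocorticoid receptor, had peaks at each of its promoters. The gene lies at chr6:35541362-35696360 on the minus strand. The upstream peak (chr6:35695191-35696502, 1312 bp, score 116.37) covered the distal start site at 35696360, and the other (chr6:35655715-35657124, 1410 bp, score 95.36) covered the canonical TSS at 35656692 with a neighbouring start. All 3 annotated start sites of the gene were thus under a peak. Both scores were low, above 34.7% and 28.6% of the list. Of all protein-coding genes, 23.6% had 2 or more peaks.

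A higher-scoring peak lay just outside FKBP5. It spanned chr6:35698864-35700663 (1800 bp, score 354.25), 2504 bp upstream of the distal start site of the gene, and overlapped no annotated gene. No start site of a protein-coding gene was nearer to its midpoint than that of FKBP5 at 3403 bp. The 200 bases at its midpoint (chr6:35699664-35699863, gene strand, CpG in capitals) are shown because this was the only window among the 12 peaks with a match to the androgen response element at up to 2 mismatches.
FKBP5, upstream of the gene: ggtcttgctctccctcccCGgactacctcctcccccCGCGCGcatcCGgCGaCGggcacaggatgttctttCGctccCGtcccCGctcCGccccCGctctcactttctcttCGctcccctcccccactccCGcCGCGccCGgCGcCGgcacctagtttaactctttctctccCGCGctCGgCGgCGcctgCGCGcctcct
The window held 26 CpG, at a CpG observed-to-expected ratio of 1.23. On the other side the nearest peak (chr6:35463865-35466749, score 356.58) lay 74.6 kb downstream, over the start of TEAD3, a TEAD transcription factor of the Hippo pathway. This was the most distant peak that the 100 kb limit admitted, and the nearest that it left out was the one 195 kb upstream of TMPRSS2.

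SLC45A3 (prostein), a transporter-like membrane protein of prostate epithelium and a fusion partner of ETS genes in prostate cancer, had the lowest-scoring peaks of the set. The gene lies at chr1:205626979-205649637 on the minus strand. The promoter peak (chr1:205648161-205649905, 1745 bp) scored 66.51, above 15% of the list, and covered the canonical TSS, with its midpoint 604 bp into the gene. A second peak in intron 2 of 4 (chr1:205632983-205634162, 1180 bp) scored 74.63, above 19.6% of the list, 16.1 kb from the canonical TSS. Neither reached a score of 100. Higher peaks lay on both sides, at the promoter of the ETS factor gene ELK4, 24.7 kb downstream of SLC45A3 (chr1:205599486-205602328, score 1144.19), and at the promoter of NUCKS1, a chromatin-associated protein gene, 67.9 kb upstream (chr1:205717540-205719918, score 1094.19). ELK4 is known for joining SLC45A3 in read-through transcripts in prostate cancer. The 200 bases at the midpoint of the intronic peak (chr1:205633473-205633672, gene strand, CpG in capitals) are shown because they hold the AP-1 heptamer TGACTCA, here in its reverse complement, with 1 CpG.
SLC45A3 intron, score 74.63: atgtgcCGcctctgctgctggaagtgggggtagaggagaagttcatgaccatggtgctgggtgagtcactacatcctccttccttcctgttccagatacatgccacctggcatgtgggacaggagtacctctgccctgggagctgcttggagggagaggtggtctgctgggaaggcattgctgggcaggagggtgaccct
Counted on both strands, that heptamer occurred in 2 of the 7 windows of peaks inside the genes, both in SLC45A3, and in 4.28% of the windows of all peaks. Other motifs were also looked for. Among them, the ETS hexamer CCGGAA occurred in 3 of the 7 windows and in 10.5% of all. The SP/KLF hexamer GGGCGG occurred in 1 of the 7 and in 32.6% of all. With the flanking peaks included, the counts among 12 windows were 2 for AP-1, 3 for ETS and 5 for SP/KLF. With 7 or 12 windows no rate can be compared.

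KLK3, which encodes prostate-specific antigen, and KLK2, a related protease that can activate it, lay side by side in a stretch with no peak. KLK3 spans chr19:51358171-51364020 and KLK2 chr19:51364824-51383823, both on the plus strand. Both had the same nearest peak, at chr19:51305142-51308985 (3844 bp, score 1608.71), over the pseudogene C19orf48P and the small nucleolar RNA gene SNORD88C. It lay 49.2 kb upstream of KLK3 and 55.8 kb upstream of KLK2, and scored above 95.4% of the list. On the other side the next peak was in CTU1, 236 kb from KLK3. The peak-free stretch between them measured 291 kb and held all 15 kallikrein genes KLK1 to KLK15, of which 0 were overlapped by a peak. Neighbouring genes share 1 stretch, so these are not 15 separate observations. Of the 20086 intervals between neighbouring peaks, 10.2% were at least as long, and the median interval was 23.6 kb. Outside this stretch, KLK3 and KLK2 each had 4 peaks within 100 kb, all on the upstream side.

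TMPRSS2, FOLH1 and PMEPA1 had no peak in the gene or within 100 kb on either side. Of all protein-coding genes 16.1% lacked a peak over such a range. The 3 of 8 here, 37.5%, have an exact interval from 8.52 to 75.5, with the same limits as above. TMPRSS2, a transmembrane serine protease whose androgen-driven promoter is joined to ERG in many prostate tumours, lies at chr21:42836227-42903043 on the minus strand. Its nearest peaks were 195 kb upstream (chr21:43097951-43099530, score 92.85) and 292 kb downstream within BACE2 (chr21:42542743-42543752, score 106.3). The interval between them measured 554 kb, of which 9.02% is unresolved sequence in the assembly. PMEPA1, an androgen-induced membrane protein that dampens TGF-beta signalling, lies at chr20:56223448-56286592 on the minus strand. Its nearest peaks were 256 kb downstream at RBM38 (score 346.17) and 525 kb upstream (score 598.77), and 3.62% of all intervals were at least as long as this one of 844 kb.

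FOLH1 (prostate-specific membrane antigen), a cell-surface carboxypeptidase that unlike the other genes is known to rise when androgen is withdrawn, was the farthest from any peak. It lies at chr11:49166644-49230190 on the minus strand. The nearest peak, at NUP160 (chr11:47869287-47870752, score 305.82), was 1296 kb away. The peak-free interval of 9174 kb spans the centromere and was among the 6 longest of the list. Of its bases 37.1% are unresolved, and 72 protein-coding genes lie in it, of which 62 are olfactory receptor genes by symbol. FOLH1 also has near copies elsewhere. Of the 31-base words in the gene, 50.1% occurred once in the reference, against 81.9% to 98.6% in the other 7 genes. How reads from repeated sequence were placed is not given in the sources used here, and the part of this in the absence of a peak was not tested.

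**Figure D3:**
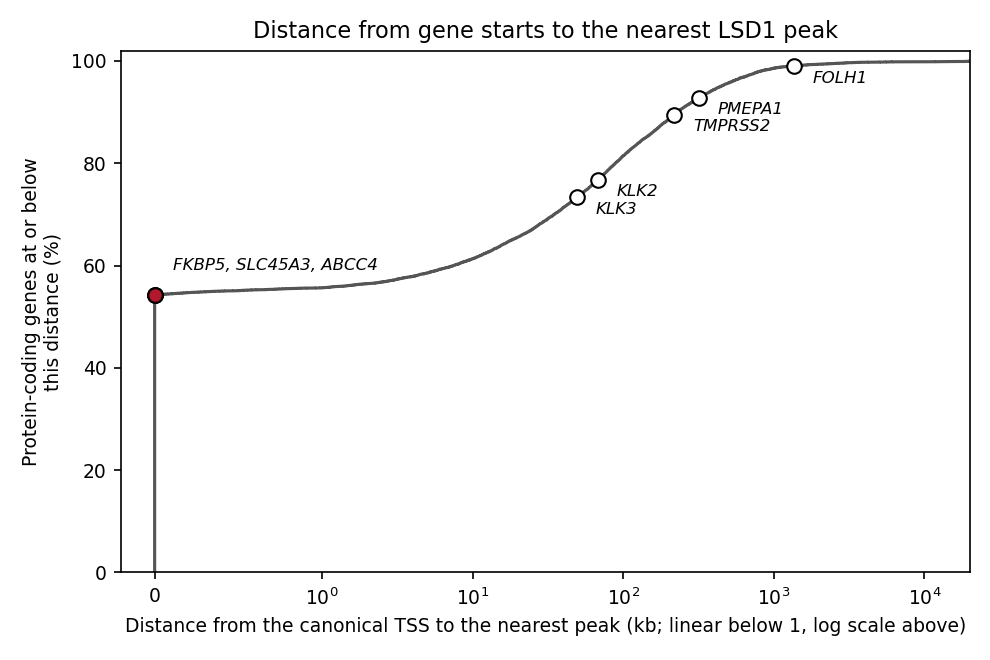
Share of protein-coding genes (%, grey line) whose canonical TSS lies at or below a given distance in kb from the nearest LSD1 peak, with the 8 target genes as points (red where a peak covers the TSS). FKBP5, SLC45A3 and ABCC4 sit at 0, and KLK3, KLK2, TMPRSS2, PMEPA1 and FOLH1 follow in order from 49.2 kb upwards.

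From the canonical TSS, the distance to the nearest peak was 49186 bp at KLK3, 67710 bp at KLK2, 217866 bp at TMPRSS2, 318056 bp at PMEPA1 and 1359402 bp at FOLH1. Among protein-coding genes, 26.3% lay at least as far from a peak as KLK3, 22.9% as KLK2, 10.4% as TMPRSS2, 7.06% as PMEPA1 and 0.952% as FOLH1. KLK3 and KLK2 lay well within the distances seen over all genes, and FOLH1 stood near the end of the distribution.

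The genes with a promoter peak were all CpG-rich, but CpG content did not separate the set fully. A promoter was counted as CpG-rich where the 1000 bp centred on the canonical TSS had more than 55% GC and a ratio of observed to expected CpG above 0.65. ABCC4 (74.4% GC, ratio 0.912), FKBP5 (72%, 0.86) and SLC45A3 (70.1%, 0.826) met this and had a peak within 1 kb. PMEPA1 (75.9%, 0.877) and TMPRSS2 (73.5%, 0.684) met it and had none. Over all protein-coding genes a peak reached within 1 kb of 77.1% of CpG-rich canonical promoters, so PMEPA1 and TMPRSS2 belong to the minority of CpG-rich promoters without one. KLK3 (57.1%, 0.148) and KLK2 (55.2%, 0.146) were CpG-poor by their ratio, which only 5.47% and 5.35% of promoters undercut. FOLH1 had a high ratio of 0.799 but a GC content of 54%, just under the limit. A peak reached 27.7% of CpG-poor promoters in all.

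**Figure D4:**
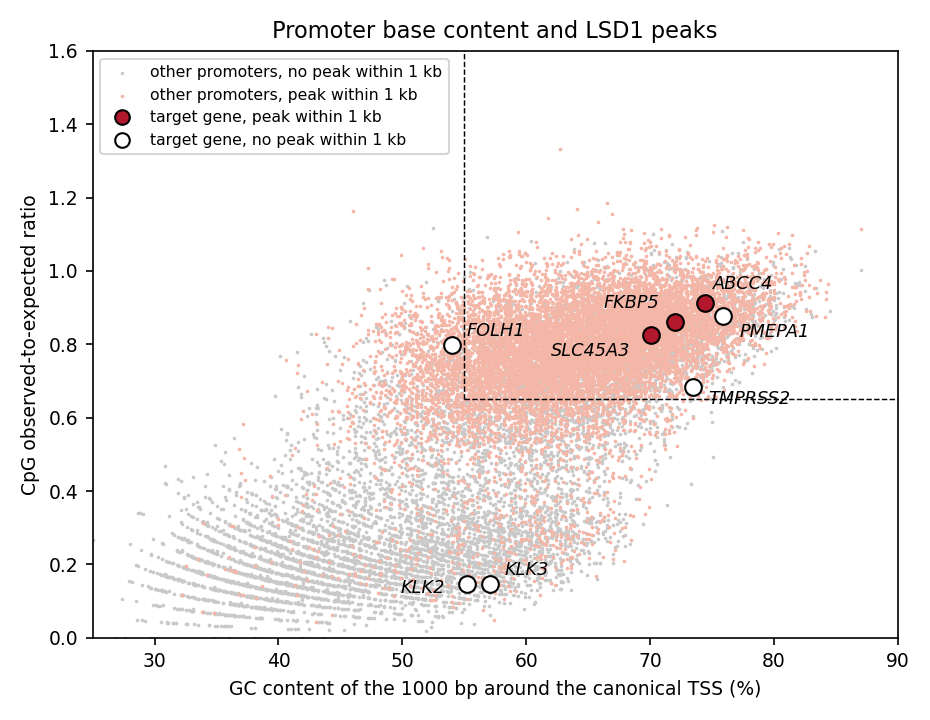
CpG observed-to-expected ratio against GC content (%) of the 1000 bp around the canonical TSS of protein-coding genes, pink where a peak lies within 1 kb and grey where none does, with the target genes as large points (red with a peak, white without) and dashed lines at the limits of the CpG-rich class. ABCC4, FKBP5 and SLC45A3 lie among the CpG-rich promoters, PMEPA1 and TMPRSS2 lie there without a peak, and KLK3 and KLK2 lie at ratios of 0.148 and 0.146.

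The androgen response element is an inverted repeat of the hexamer AGAACA, written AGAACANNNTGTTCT, which reads the same on both strands. Mismatches were counted over its 12 fixed bases, and below the matching fixed bases are in capitals. At up to 2 mismatches, 1.18% of the 35116 RefSeq promoters of 250 bases held it. KLK3 held the element from position -170 to -156 relative to its start (chr19:51358001-51358015) with 2 mismatches. At the same limit it occurred in the promoter of an alternative PMEPA1 start (chr20:56285857-56285871). KLK2 matched with 3 mismatches (chr19:51376519-51376533), a limit met by 9.17% of promoters. The upstream FKBP5 promoter, partly under a peak, also matched with 3 mismatches (chr6:35696565-35696579), outside the bases that the peak covers. The KLK3, KLK2 and PMEPA1 sites are printed as the closest matches in promoters without an LSD1 peak.
KLK3 promoter: AGAACAgcaaGTgCT
KLK2 promoter: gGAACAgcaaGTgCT
PMEPA1, alternative promoter: tGAAgAatgTGTTCT
Both kallikrein promoters also held TATAAA on the reverse strand, a hexamer found on either strand in 10.7% of promoters, and none of the 4 printed promoters under a peak did. A sequence match describes letters and does not show binding.

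Elements closer to the full sequence were sought in each gene with 100 kb on both sides. At up to 1 mismatch there were 7, with 3 at FKBP5, 3 at FOLH1 and 1 at ABCC4, and 0 of the 7 lay under an LSD1 peak. The genome held 15198 such elements, of which 127 (0.836%) lay under peaks, and peaks covered 1.47% of the non-gap sequence. The only exact match was in intron 5 of 10 of FKBP5 (chr6:35569859-35569873), 86.8 kb downstream of the canonical TSS and 85.8 kb from the nearest peak. The genome held 565 exact matches, 5 of them under peaks. The match in the peak upstream of FKBP5 (chr6:35699795-35699809) had 2 mismatches and lay 39 bp from the peak's midpoint. Its site and the exact one are shown on the gene strand.
FKBP5, exact match in the intron: AGAACAgggTGTTCT
FKBP5, match in the upstream peak: gGcACAggaTGTTCT
That peak was 1 of 12 with a match at its midpoint window of 200 bp, against 0.671% of all peaks (135 of 20110), and 0 of the 7 peaks inside genes had one. With 1 match no rate can be compared. The FOXA heptamer TGTTTAC, on both strands, occurred in 0 of the 12 windows and in 1.61% of all. A single hexamer AGAACA, on either strand, occurred in 3 of the 12 windows and in 9.03% of all. Among the 7 windows inside genes, 2 held it. These counts are too small to compare as rates.

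Further genes of the pathway were read from a pair of lists. Of 16 other androgen-responsive genes, 10 were overlapped by a peak and 9 had a promoter peak, beside 61.2% and 54.6% of all protein-coding genes. Among those reported here, the highest scores were at NCAPD3, a condensin subunit (1452.93), and UAP1, an enzyme of UDP-N-acetylglucosamine synthesis (1292.11). ACSL3, a fatty acid activating enzyme, followed at 322.92, below the median of 493 over all genes with a peak. Each score is from a peak over the canonical TSS. ACP3 (prostatic acid phosphatase), HPGD, KLK4, MAF, TRPM8 and ZBTB16 had no peak in the gene. The median of the highest score over the 10 genes with a peak was 239, against 493 over all genes with one.

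Of 10 genes that encode factors or coregulators known to act with the receptor, 9 were overlapped by a peak and 9 had a promoter peak. Over all protein-coding genes these shares were 61.2% and 54.6%. The median highest score was 704 over the 9 genes with a peak, against 493 over all genes with one. The pioneer factor gene FOXA1 lay under a peak of 14382 bp (chr14:38056487-38070868, score 2070.94). The acetyltransferase gene EP300 scored 1297.39, the coactivator gene NCOA3 1012.52 and KDM1A, the gene of LSD1 itself, 877.5. GATA2, a second pioneer factor of the receptor, was the member without a peak, the nearest being 124 kb away. The lists were chosen with earlier results of these data known, and their counts stand as a description. They were not set here beside classes of gene length or promoter CpG content. Of all genes of 30 to 100 kb, 70.2% were overlapped, and a peak reached 77.1% of CpG-rich canonical promoters.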

How the data were processed

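LSD1 ChIP and input DNA from PC-3M-luc cells were sequenced, 1 library each. Per the labels' protocols, reads were mapped to hg19 with bowtie 2. Per the submitters' processing notes, MACS 1.41 and Bowtie2 were used, and the builds named are hg19 and mm10. All peaks fit within GRCh37 chromosomes, and mm10 was not used. The deposited list gives a position and a score per peak, and is read here as LSD1 over input. How the score is computed, its threshold, the treatment of duplicates and the numbers of reads are not stated in the labels, which leaves the depth unknown.

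Genes came from GENCODE 44 on GRCh37, and each gene's canonical transcript is the one tagged there. Coordinates are 1-based. A peak overlapped a gene by at least 1 base. Intervals are exact 95% binomial. The 8 genes, and the lists of 16 and 10 genes, were chosen with earlier results of these data known. All 8 genes and all their peaks were described, with, from each list, the 4 genes of highest score and those without a peak. CpG classes, gaps between peaks and 31-base words were chosen after the data were seen. The receptor gene and 1 gene of the lists are not reported here. Counting code was tested on simulated data. Alternatives varied the score minimum, peak width, merging, overlap, promoter and flank limits and element mismatches. Tools were matplotlib 3.10.9, numba 0.67.0, pysam 0.24.0, scipy 1.17.1, pandas 2.3.3 and numpy 2.4.6 under Python 3.11.15.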

Additional observations from a re-analysis of the deposited data

How the results depend on the processing

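No paired analysis was possible because the LSD1 ChIP and the input are 1 library each. Of 28 alternative values of the main counts, 21 stayed within 1.5 times and 7 moved. With only peaks that reached the median score, 1 of the 8 genes was overlapped, by 1 peak, and 1 had a promoter peak, in each case ABCC4. With a score of at least 100, 4 peaks in place of 7 lay inside the genes, and SLC45A3 had none. A flank limit of 25 kb left 3 genes with a peak in place of 5, since the nearest peak to KLK3 and KLK2 is farther away. Counted over the whole peak, 2 of the 12 peaks held an androgen response element, against 8.39% of all peaks (1688 of 20110), and at up to 1 mismatch 0 did in the window of 200 bp. These shifts follow from fewer peaks, a shorter range, a longer window or a stricter limit on mismatches. Of 48 alternative values for single genes, 42 stayed and 6 moved. KLK3, KLK2, TMPRSS2, FOLH1 and PMEPA1 had 0 peaks in the gene under every alternative run. That outcome was fixed in advance, since the alternatives for single genes only removed or merged peaks or narrowed the overlap. The values of these 5 genes are among the 42 that stayed and are no check on the absence of peaks. With unknown depth and 1 library, low-scoring peaks such as those of SLC45A3 and the absence of a peak have no replicate check, and copy number in this aneuploid line was not analysed here.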

Other observations

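The peak-free interval around TMPRSS2 held 4 protein-coding genes, with MX1 and MX2, which encode interferon-induced antiviral GTPases, and FAM3B, a secreted factor of the pancreas, beside it. The peak-free interval around PMEPA1 held 7, among them PCK1, the gluconeogenic enzyme phosphoenolpyruvate carboxykinase, ZBP1, a sensor of nucleic acids, and CTCFL, a germ line paralogue of CTCF. The genes named here were chosen after their place was seen.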
